A study of Homo sapiens with 16 samples.

Results

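Transcripts of 10 chemokine genes were followed in kidney organoids over culture time, after TNFα, and by cell type. The genes were chosen by name, with earlier results of these data known. They were CXCL1, CXCL2, CXCL3, CXCL10, CXCL12, CXCL14 and CXCL16 of the CXC family, CCL2 and CCL20 of the CC family, and CX3CL1, which belongs to neither and is the CX3C chemokine. The set 1 bulk table listed 5 of the 10 among its 20121 genes, and 9 of the 10 were listed among 27650 genes in set 2. All 10 were listed among 21093 genes in the TNFα set and among 36601 in the single-cell matrices. CCL20 was listed in neither day table, and CXCL1, CXCL2, CXCL3 and CXCL10 were not listed in set 1.

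The organoids were grown from UM77-2, an established human embryonic stem cell line, so that all libraries shared 1 genetic background. In set 1, 1 untreated library was made on each of days 21, 25 and 29 (D21, D25 and D29), and in set 2, 2 libraries on each of these days. In the TNFα set, isolated organoid spheroids collected on day 25 had received vehicle (VC) or 5 ng/ml TNFα for 24 h or 48 h, with 1 library per group. For single cells, whole wells received vehicle or 5 ng/ml TNFα and were dissociated after 24 h on day 24, with 1 droplet library per condition. Totals were 19073609 to 30282025 reads per day library and 49948198 to 59246286 per TNFα library. The sources used here do not say whether the set 2 libraries of a day came from separate differentiations, so p-values measure the spread between these libraries, which may be technical.

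Chemokines are small secreted proteins that bind G protein-coupled receptors on other cells and direct their movement. CXCL1, CXCL2 and CXCL3 act on CXCR2 and draw neutrophils, CXCL10 acts on CXCR3 of T cells, CCL2 on CCR2 of monocytes, and CCL20 on CCR6. CXCL12 and its receptors CXCR4 and ACKR3 serve in organ development and in the homing of progenitor cells, and CXCL14 is made constitutively by many epithelia. CXCL16 and CX3CL1 are made as membrane-bound proteins, which the proteases ADAM10 and ADAM17 release, and bind CXCR6 and CX3CR1. In kidney, CCL2 is a familiar product of TNFα and NF-κB signaling in glomerular and tubular cells.

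On GRCh38 (GENCODE v44), 4 of the genes lie on chromosome 4. These are CXCL1 (73869393 to 73871308, plus strand), CXCL3 (74036589 to 74038807, minus strand), CXCL2 (74097040 to 74099196, minus strand) and CXCL10 (76021118 to 76023497, minus strand). CCL2 (34255274 to 34257208, plus strand) and CXCL16 (4733533 to 4739928, minus strand) lie on chromosome 17. CXCL12 is at 44370165 to 44386493 of chromosome 10 (minus strand), CXCL14 at 135570679 to 135579279 of chromosome 5 (minus strand), CCL20 at 227805739 to 227817564 of chromosome 2 (plus strand) and CX3CL1 at 57372477 to 57385044 of chromosome 16 (plus strand). The coding sequences of CXCL1, CXCL2 and CXCL3 are each 321 bases long and agree at 93.5% of bases between CXCL1 and CXCL2, 90.7% between CXCL1 and CXCL3 and 94.4% between CXCL2 and CXCL3. Counting could therefore split or drop reads of these 3 genes, and their separate values are uncertain.

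NF-κB, a transcription factor that TNFα activates, binds a 10-base element named the kappaB consensus. RefSeq promoters (GRCh38.p14) were at hand for 7 members and were searched over 250 bases before the start on both strands. Of these, 5 held at least 1 match, and the windows are shown because they hold the letters of this element. A match describes the letters and does not show binding. The start is that of the RefSeq promoter, and the windows of CXCL3 and CCL20 lie inside the GENCODE spans given above. Each window is 30 bases, 5′ to 3′ on the strand of the gene, and capitals mark the match.
CXCL1 (chr4:73869304-73869333, match from base -79): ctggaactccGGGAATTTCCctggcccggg
CXCL2 (chr4:74099254-74099283, match from base -78): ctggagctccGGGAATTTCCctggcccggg
CXCL3 (chr4:74038749-74038778, match from base -79): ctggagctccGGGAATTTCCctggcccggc
CXCL10 (chr4:76023655-76023684, match from base -177): gaggagcagaGGGAAATTCCgtaacttgga
CXCL10 (chr4:76023600-76023629, match from base -122): tctgcaacatGGGACTTCCCcaggaacagc
CCL20 (chr2:227813753-227813782, match from base -79, on the opposite strand): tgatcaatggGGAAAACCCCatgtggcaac
CXCL1, CXCL2 and CXCL3 carried the same word at nearly the same distance from the start, and each of these matches overlapped a second match on the opposite strand, 1 base further on. The word GGGAATTTCC stood in 0.142% of all 35116 RefSeq promoters searched in the same way, and the kappaB consensus in 9.96% of them. No match was found in the windows of CXCL12 and CXCL14. CXCL16, CCL2 and CX3CL1 were not among the promoters used.

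The first comparison asked how the untreated organoids changed with culture duration. In both sets, every D29 library held more CXCL12, CCL2, CXCL14, CXCL16 and CX3CL1 than any D21 library of its set, and CXCL12 was by far the most abundant of them per length. In set 2, with 1 mean per day fitted by limma to log2(CPM + 1), where CPM is the reads of a gene scaled to 1e6 reads of the library, 6 of the 9 listed chemokines were called higher on D29 than on D21 at an adjusted p under 0.05 and 0 were called lower. Over all 27650 genes, 18.4% were called in either direction and 10.0% were called higher. The median log2 fold change was 0.62 over the 9 chemokines and -0.02 over all genes.

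CXCL12, the ligand of CXCR4, stood at 87.7 and 79.2 CPM in the D21 libraries of set 2, at 252.7 and 227.9 CPM on D25 and at 249.7 and 374.5 CPM on D29. All later libraries lay above both D21 libraries, while the D29 libraries lay on either side of 1 D25 library. The log2 fold change was 1.86 between D29 and D21 (limma, SE 0.168, adjusted p = 3.40e-04) and 1.51 between D25 and D21 (limma, SE 0.168, adjusted p = 3.32e-03). In set 1, CXCL12 stood at 149.8, 293.6 and 362.0 CPM on D21, D25 and D29, a CPM ratio of 2.42 between D29 and D21 (95% interval 2.33 to 2.51, counting error only, as for all intervals here).

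CCL2, which draws monocytes, measured 2.86 and 1.78 CPM on D21, 8.39 and 6.95 CPM on D25 and 8.82 and 9.73 CPM on D29 of set 2. The days D25 and D29 each lay wholly above D21. Its log2 fold change between D29 and D21 was 1.64 (limma, SE 0.192, adjusted p = 1.04e-03), and set 1 gave 4.79, 8.26 and 10.4 CPM in the same order of days. CXCL14 measured 13.9 and 10.2 CPM on D21, 35.7 and 29.6 CPM on D25 and 44.5 and 31.3 CPM on D29 of set 2. Its rise lay between D21 and D25 (log2 fold change 1.37, limma, SE 0.192, adjusted p = 8.43e-03), and the D25 and D29 libraries overlapped. In set 1, CXCL14 stood at 21.4, 48.2 and 32.3 CPM, so that the single D29 library was below the single D25 library (a difference of -0.57 on the log2 scale), where the set 2 difference of 0.20 did not pass the test.

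The membrane-bound chemokines had smaller log2 fold changes between D29 and D21 than CXCL12, CCL2 and CXCL14 in set 2. CXCL16 measured 2.35 and 2.43 CPM on D21, 4.46 and 3.95 CPM on D25 and 6.14 and 6.04 CPM on D29 of set 2, with no overlap between days. The difference between D29 and D21 was called (log2 fold change 1.06, limma, SE 0.147, adjusted p = 2.24e-03), and that between D25 and D21 was not (0.61, limma, SE 0.147, adjusted p = 0.0570). CX3CL1 measured 23.4 and 18.8 CPM on D21, 31.0 and 35.8 CPM on D25 and 29.8 and 36.0 CPM on D29. It was called higher on D29 than on D21 (log2 fold change 0.62, limma, SE 0.135, adjusted p = 1.64e-02), and D25 and D29 overlapped. In set 1, CXCL16 ran from 2.18 over 3.33 to 3.61 CPM and CX3CL1 from 13.7 over 21.3 to 28.3 CPM. The set 1 CPM ratio between D29 and D21 was 2.07 (1.83 to 2.35) for CX3CL1 and 1.66 (1.19 to 2.32) for CXCL16, beside 1.51 (1.36 to 1.68) for CXCL14 and 2.17 (1.77 to 2.69) for CCL2, so the order of set 2 was not seen there.

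The neutrophil chemokines and CXCL10 were near the limit of detection without TNFα. CXCL1 measured 1.34 and 1.09 CPM on D21, 0.682 and 0.808 CPM on D25 and 0.826 and 0.759 CPM on D29, and its log2 fold change between D29 and D21 of -0.30 did not pass the test (limma, SE 0.124, adjusted p = 0.140). CXCL3 had 0 reads in both D21 libraries, 7 and 5 reads on D25 and 13 and 11 reads on D29. With D21 set to a floor of 3 reads per library, the mean of D29 was at least 2.99-fold higher, and the difference was called (limma, adjusted p = 6.79e-03). CXCL2 had 3 to 15 reads per library and CXCL10 1 to 12, and neither was called. The highest CXCL10 value came from 1 D29 library with 12 reads, while the other held 3.

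Per kilobase of exon, the D29 means of set 2 fell in the order CXCL12, 50.8 CPM per kb, CXCL14, 19.2, CX3CL1, 5.52, CCL2, 4.79, CXCL16, 2.18 and CXCL1, 0.582. On CPM, CXCL12 was 312.1 ± 88.3 (SD, n = 2) and CXCL14 37.9 ± 9.34 (SD, n = 2) on D29. CX3CL1 and CCL2 are neighbors in this order whose D29 libraries overlapped, at 5.00 and 6.05 CPM per kb for CX3CL1 and 4.56 and 5.03 CPM per kb for CCL2.

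**Figure D1:**
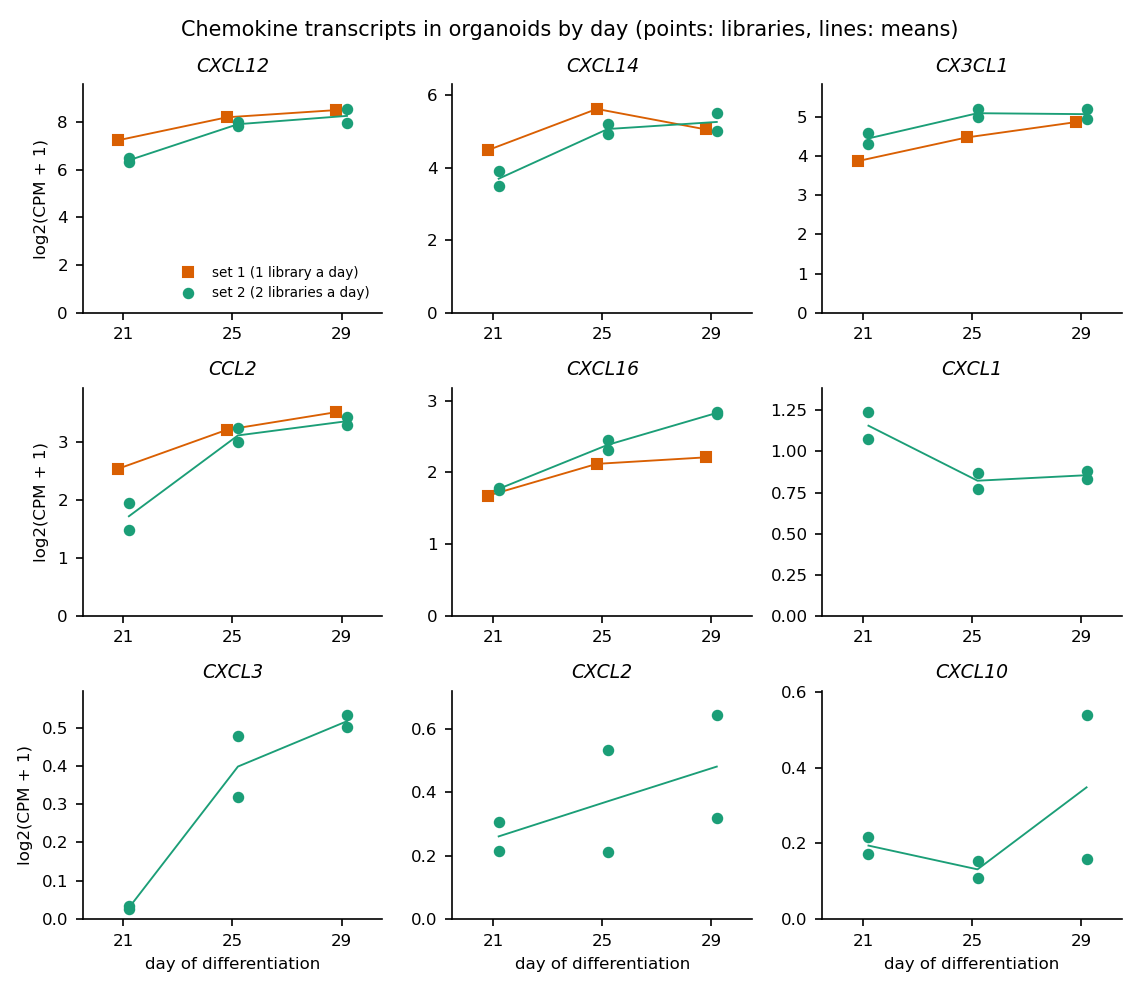
Each panel plots log2(CPM + 1) of a chemokine against the day of differentiation, with a point for each library and a line through the day means, set 1 in squares and set 2 in circles. CXCL12, CCL2 and CXCL14 were lowest on D21 in both sets, and the bottom row holds genes with 0 to 15 reads per library.

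Between D25 and D21, 4 of the 9 chemokines were called higher in set 2 (CXCL12, CCL2, CXCL14 and CX3CL1) against 5.37% of all genes in either direction and 3.39% higher. This count was 3 without the first D21 library, 0 without the second, and 1, CXCL12, without either D25 library. It was 6 by edgeR, 5 by DESeq2 and 6 with log2(CPM + 0.1). Between D29 and D25, limma called 0 of 9, against 2.08% of all genes, and edgeR and DESeq2 on the recovered reads also called 0. Of the 9, CXCL16 alone had an unadjusted p under 0.05 by limma, as had 4820 of 27650 genes, and CXCL12 and CXCL16 had one by edgeR and by DESeq2. In set 1, which allows no test, 1 of 5 listed chemokines, CXCL12, was past 2-fold on the log2(CPM + 1) scale between D29 and D21, where 3.09% of all genes were past 2-fold upward.

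In bulk organoids, fewer cells of a type and less RNA per cell cannot be told apart. The summed level of 8 stromal markers moved with CXCL12: it was 4503 and 5180 CPM in the D21 libraries of set 2, 11676 and 12027 CPM on D25 and 14947 and 18512 CPM on D29, and it rose from 7702 to 20029 CPM in set 1. The summed level of 8 podocyte markers went the other way, from 11003 and 11563 CPM on D21 to 7490 and 3514 CPM on D29 of set 2. Among 8 leukocyte markers, PTPRC, TYROBP, LYZ and CD68 were not listed in set 2, LAPTM5 had 0 to 5 reads per library, and the sum of the listed markers was 34 to 38 CPM on all days. The part of cell composition in the day differences was not tested.

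Between D29 and D21 of set 2, 18.4% of all genes were called in either direction and 10.0% higher, and the lists below stand beside these shares. Among the signaling genes around the chemokines, 5 of 12 NF-κB and interferon pathway genes rose between D21 and D29 in set 2 and 0 fell. These were the NF-κB targets BIRC3 (log2 fold change 0.96), TNFAIP3 (0.79), RELB (0.78), TRAF1 (0.38) and NFKBIA (0.34). In set 1 the CPM ratio between D29 and D21 was 0.979 (0.860 to 1.11) for TNFAIP3 and 1.32 to 2.29 for the other 4. Of 22 chemokine receptor genes, 8 were listed, with too few calls to set the list apart from all genes. ACKR1, a scavenger receptor, rose in set 2 (log2 fold change 0.91), with a set 1 CPM ratio of 1.02 (0.727 to 1.43). CXCR4, the signaling receptor of CXCL12, fell (-0.79), while the second CXCL12 receptor, ACKR3, was not called (0.22). CXCR4 measured 25.5 and 30.3 CPM on D21, 16.6 and 18.2 CPM on D25 and 14.9 and 16.4 CPM on D29 of set 2, so that it moved against its ligand, and in set 1 it ran from 60.9 over 31.4 to 21.0 CPM. Of 8 genes of chemokine processing, the gelatinases MMP2 (log2 fold change 1.77) and MMP9 (1.30) rose, DPP4, a peptidase that trims chemokines, fell (-0.96), and ADAM10 and ADAM17 were not called. Of 32 other chemokines, 9 were listed, of which CXCL5 (0.92) and CXCL13 (0.66) rose and CCL1 (-1.21) fell.

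The second comparison asked what TNFα did to the same genes in isolated organoids. All 10 chemokines were higher with TNFα than with VC at both times. With treatment and hours as terms in limma, so that the 2 times stood in for replicates, 10 of 10 were called higher, against 19.3% of all 21093 genes in either direction and 8.42% higher. The p-values of this fit rest on how far the TNFα effect differed between the 2 times, with variance shared over genes. They measure no spread between replicates, as no group was replicated. With a 2-fold rule as well, 7 of 10 were called higher, against 1.08% of all genes called higher. The median log2 fold change was 1.40 over the 10 and -0.03 over all genes.

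CCL2 stood at 8.95 CPM with VC and 196.0 CPM with TNFα at 24 h, and at 9.49 and 149.1 CPM at 48 h. That is a CPM ratio of 21.9 (19.99 to 24.0) at 24 h and 15.7 (14.3 to 17.3) at 48 h, and a log2 fold change of 4.07 over both times (limma, SE 0.0924, adjusted p = 4.36e-15). CXCL1, the most abundant of the neutrophil chemokines, went from 2.27 to 57.0 CPM at 24 h and from 2.62 to 48.1 CPM at 48 h (log2 fold change 3.95, limma, SE 0.109, adjusted p = 4.62e-14). For both genes the VC and TNFα libraries did not overlap.

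CXCL10 had the widest ratio and the fewest VC reads. It had 7 and 11 reads with VC and 613 and 490 with TNFα, or 0.129 and 0.220 against 11.7 and 8.27 CPM. The CPM ratio was 90.5 (43.7 to 226) at 24 h and 37.6 (20.8 to 75.7) at 48 h, and the log2 fold change, which the added 1 CPM holds down at such low levels, was 3.20 (limma, SE 0.138, adjusted p = 1.78e-11). CXCL3 rose from 15 to 130 reads at 24 h and from 21 to 102 at 48 h, and CXCL2 from 21 to 118 and from 44 to 215. The log2 fold changes were 1.19 for CXCL3 (limma, SE 0.128, adjusted p = 2.14e-06) and 1.26 for CXCL2 (limma, SE 0.116, adjusted p = 3.32e-07). CCL20, the CCR6 ligand, was near 1 CPM with TNFα at both times, with 26 and 15 reads with VC and 58 and 67 with TNFα (log2 fold change 0.61, limma, SE 0.111, adjusted p = 6.29e-04).

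CXCL14 and CXCL16 rose from higher VC levels. CXCL14 went from 31.2 to 118.3 CPM at 24 h and from 28.1 to 89.2 CPM at 48 h (log2 fold change 1.76, limma, SE 0.0753, adjusted p = 1.53e-11). CXCL16 went from 6.61 to 24.3 CPM and from 6.77 to 18.7 CPM (log2 fold change 1.54, limma, SE 0.1101, adjusted p = 1.42e-08). CX3CL1, the other membrane-bound member, changed less, from 59.9 to 83.2 CPM and from 47.6 to 77.8 CPM (log2 fold change 0.58, limma, SE 0.0722, adjusted p = 1.12e-05).

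CXCL12 had the smallest log2 fold change over both times, though at 24 h alone CX3CL1 differed about as little (0.47 against 0.48 for CXCL12). It stood at 144.5 CPM with VC and 202.0 CPM with TNFα at 24 h, and at 169.0 and 177.3 CPM at 48 h, so that the 48 h TNFα library lay closer to the 48 h VC library than the VC libraries lay to each other. The log2 fold change of 0.27 passed the test (limma, SE 0.0787, adjusted p = 1.94e-02) but was lost by DESeq2, without the trend, with treatment as the only term and when any of the 4 libraries was left out. The calls of CCL2, CXCL1, CXCL10, CXCL14, CXCL16 and CXCL3 were kept without each of the 4 libraries in turn, in a fit with treatment as its only term. Those of CXCL2, CX3CL1 and CCL20 were not kept each time, and without the 48 h TNFα library 6 of 10 remained.

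**Figure D2:**
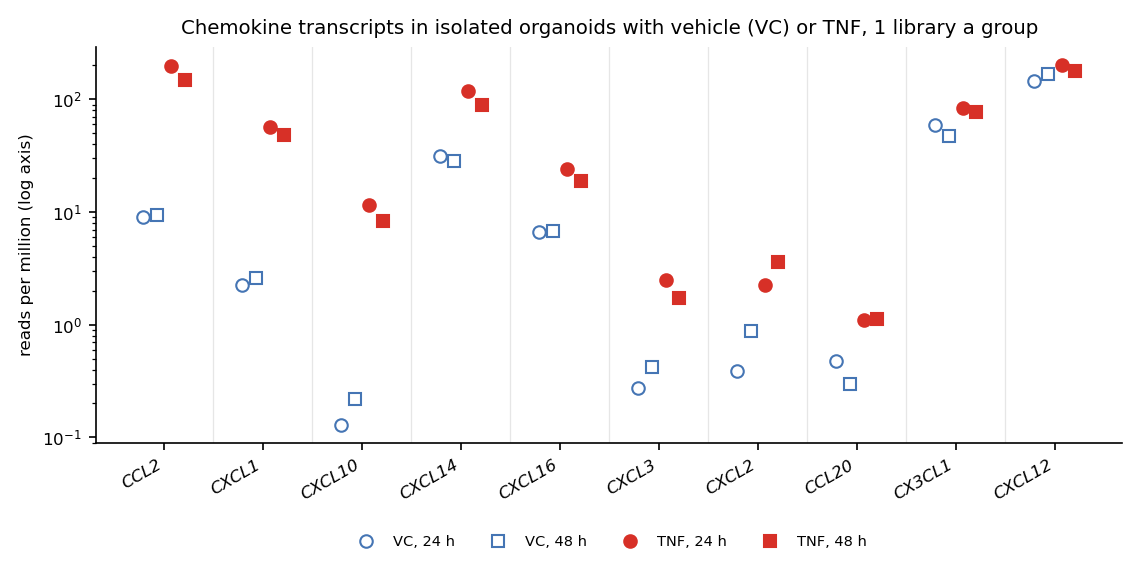
Points show CPM (log axis) of each chemokine in the 4 libraries of the TNFα set, open for VC and filled for TNFα, circles at 24 h and squares at 48 h. Every filled point lies above both open points of its gene, from a wide gap for CXCL10 (0.129 and 0.220 against 11.7 and 8.27) to a narrow one for CXCL12 (144.5 and 169.0 against 202.0 and 177.3).

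At 24 h, 7 of 10 chemokines were past 2-fold upward on the log2(CPM + 1) scale, against 1.28% of all genes, and at 48 h 6 of 10 against 1.07%. These counts depend on the added 1 CPM, and with log2(CPM + 0.1) 8 of 10 were past 2-fold at both times. CXCL3 had a difference of 1.44 at 24 h and 0.93 at 48 h on the log2(CPM + 1) scale, and CPM ratios of 8.95 (5.23 to 16.5) and 4.09 (2.54 to 6.90). The CPM ratio of TNFα to VC was smaller at 48 h than at 24 h for 8 of the 10. It was larger for CCL20, at 2.30 and 3.77, and for CX3CL1, at 1.39 and 1.63. For CXCL2 it went from 5.81 to 4.12, where the log2(CPM + 1) difference went the other way, from 1.22 to 1.29. With 1 library per group this was not tested. Per kilobase of exon, the order with TNFα at 24 h was CCL2, 101.3 CPM per kb, CXCL14, 59.9, CXCL1, 41.9, CXCL12, 32.9, CX3CL1, 13.96, CXCL10, 9.93, and CXCL16, 8.69, and CXCL2, CXCL3 and CCL20 were at 1.61, 1.11 and 0.69. With VC at 24 h, CXCL12 led at 23.5 CPM per kb, followed by CXCL14 at 15.8 and CX3CL1 at 10.0.

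Other genes of the pathway were read from the same fit, in which 19.3% of all genes were called in either direction and 8.42% higher. Of the 12 NF-κB and interferon pathway genes, 10 rose with TNFα and 0 fell, with BIRC3 (log2 fold change 3.54), TNFAIP3 (3.29), RELB (2.87), NFKBIA (2.47) and NFKB2 (2.26) the 5 with the largest changes. Among 5 other chemokines that were listed of 32, CXCL6 (3.12) and CXCL5 (1.79), which also act on CXCR2, and CCL28 (0.56) rose, and CCL1 (-0.56) fell. Of 22 receptors, 5 were listed, of which CCR10 (0.78) and CXCR4 (0.51) rose and ACKR3 (-0.78) fell, from 41.5 to 23.2 CPM at 24 h and from 38.6 to 22.6 CPM at 48 h. The gelatinase MMP9 rose by 4.67 on the log2 scale and the proteoglycan SDC1, which binds chemokines, by 0.51, DPP4 (-0.38) and MMP2 (-0.25) fell, and ADAM10 and ADAM17 were not called.

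Cell type markers differed between these libraries as well. The 8 podocyte markers summed to 6977 and 6466 CPM with VC and to 4256 and 3146 CPM with TNFα, the 8 proximal tubule markers to 781 and 768 against 406 and 462 CPM, and the 8 stromal markers to 7042 and 8644 against 8887 and 9231 CPM. Of the 8 leukocyte markers, PTPRC, TYROBP, LYZ, CD68 and LAPTM5 were not listed. The listed sum went from 75 and 80 to 191 and 184 CPM and was mostly CD74, which other cells also make after cytokines. The part of these shifts in the chemokine differences was not tested.

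The third comparison asked which cells made each chemokine. After barcodes with over 500 genes were kept, the VC library held 11906 cells with a median of 6358.5 UMIs (unique molecules counted) and the TNFα library 23160 cells with a median of 2599. The chemokines and the other listed pathway genes were left out of the clustering. Of 15 clusters, 11 gave 8 classes named by their markers, and 4 stayed unnamed. Without alignment of the 2 libraries, 15411 of the 35066 cells formed 1 unnamed cluster with no raised marker. Podocyte-like cells then numbered 2691 over both libraries, so the class of many cells rests on the alignment. The leading genes of podocyte-like cells (905 VC, 3279 TNFα) included DDN, PTPRO and CLIC5. Proximal tubule-like cells (1271 and 3592) were led by FXYD2, HPN and AMN, and stromal-like cells (2560 and 4305) by IGF1, MGP, COL1A1 and ACTA2. An unnamed cluster (541 and 1636 cells), led by TESC, CCN2, ITIH5 and IL1R1, had all 8 podocyte markers and 5 early nephron markers raised, and is called the TESC-led cluster here. It stayed unnamed because its leading genes held CLDN5, a listed endothelial marker, and no listed podocyte marker. Levels are UMIs of a gene scaled to 1e6 UMIs of a class (CPM), and with 1 library per condition no test was possible.

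In proximal tubule-like cells of both libraries, shallow barcodes held higher levels of podocyte markers than deep ones. Whether free RNA or cells put in the wrong class gave this was not tested. In proximal tubule-like vehicle cells the 8 podocyte markers summed to 800 CPM up to 2000 UMIs and to 125 CPM over 8000 UMIs. CCL2 was at 46.0 and 6.37 CPM in the same cells. Muscle-like and neuronal-like vehicle cells of over 8000 UMIs still held 411 and 271 CPM of the podocyte markers, so this sum is no clean gauge of free RNA. In TNFα cells of up to 2000 UMIs outside the podocyte-like class and the TESC-led cluster, the 8 podocyte markers summed to 801 to 1185 CPM in each of 7 named classes, and CCL2 to 863 CPM in proximal tubule-like cells and 1000 CPM in muscle-like cells. In cells of over 8000 UMIs the podocyte markers summed to 113 to 180 CPM in 5 of these classes and to 362 CPM in neuronal-like cells, and CCL2 to 159 CPM in proximal tubule-like and 163 CPM in muscle-like cells. Levels by class are therefore given for cells of over 8000 UMIs, 292 and 199 podocyte-like (VC and TNFα), 361 and 254 stromal-like, 722 and 334 proximal tubule-like and 234 and 198 in the TESC-led cluster, with values over all cells beside the main ones. This choice was made after the data were seen. It keeps a smaller part of the TNFα library, whose median was 2599 UMIs against 6358.5 with vehicle. Deep cells are thus unlike fractions of the libraries. Doublets, expected at 9.52% of VC and 18.5% of TNFα cells, were kept among deep cells, and leaving them out was tried only over all cells. Endothelial-like cells (380 and 960) had 4 and 1 cells of that depth, and their values are not read here. Of the leukocyte markers, PTPRC had 1 UMI in the VC library and 4 in the TNFα library, and LAPTM5 had 6 and 9.

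**Figure D3:**
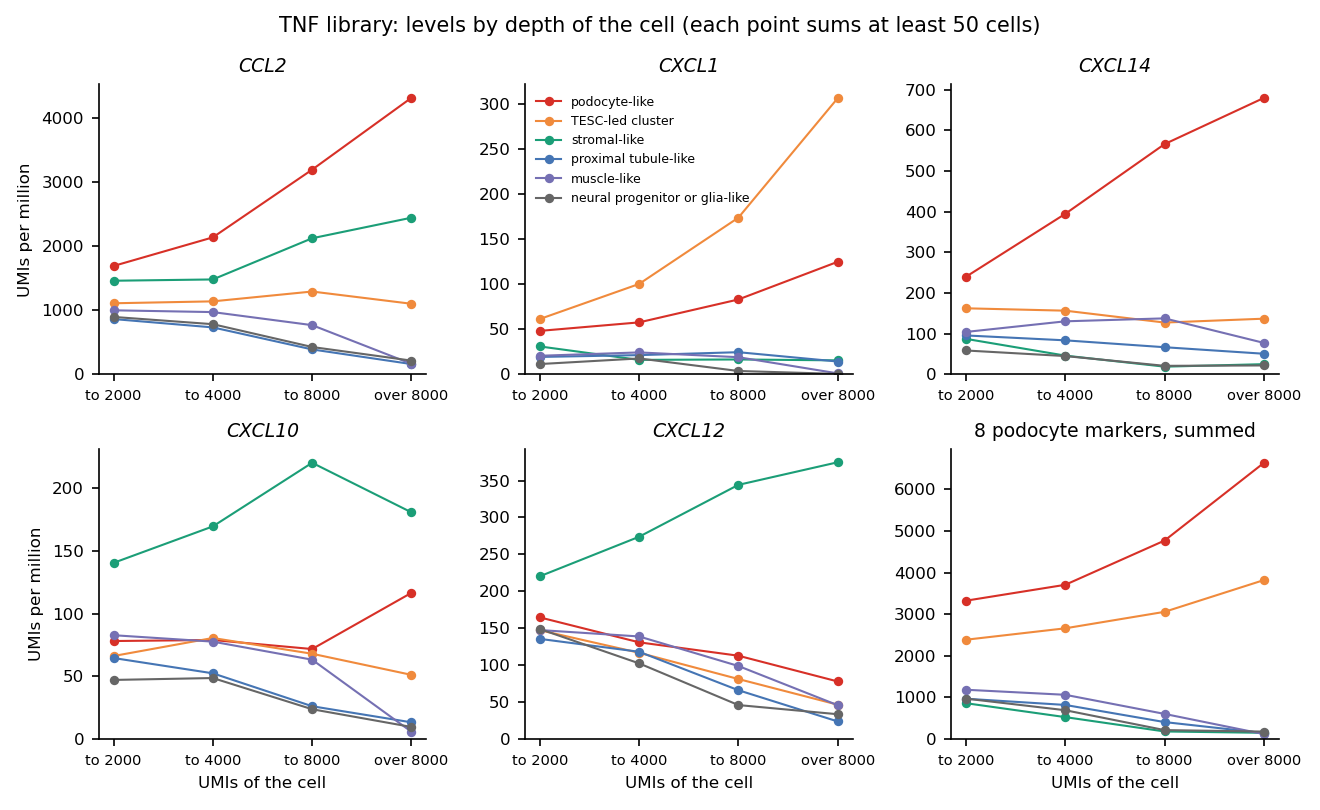
Lines give CPM of 5 chemokines and of 8 summed podocyte markers in 6 classes of the TNFα library, by the UMIs of the cell. In podocyte-like cells CCL2 went from 1693 to 4321 with depth, and in proximal tubule-like cells from 863 to 159, while podocyte markers outside the podocyte-like and TESC-led cells fell to 180 or less among the classes drawn.

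With vehicle, 3 of the 10 chemokines had a leading named class whose counting interval lay above that of every other named class, over all cells. The intervals of the endothelial-like class, which rest on 541692 UMIs in all, entered this count. In deep cells, where that class was left out, CX3CL1 had such a leading class beside the same 3. CXCL12 was led by stromal-like cells, at 508 CPM in all cells and 527 CPM in deep cells (505 to 550), ahead of proliferating-like cells at 185 CPM (174 to 196). Proximal tubule-like and glia-like cells stood at 28.6 and 29.4 CPM, and podocyte-like cells at 62.0 CPM. CXCL14 was led by podocyte-like cells, at 361 CPM (346 to 376), followed among named classes by muscle-like cells at 59.8 CPM (49.6 to 71.4), with the TESC-led cluster at 86.6 CPM and stromal-like cells at 1.52 CPM. CCL2 was led by stromal-like cells, at 86.5 CPM (77.6 to 96.2), ahead of podocyte-like cells at 55.1 CPM (49.3 to 61.5), and was at 6.37 CPM in proximal tubule-like cells.

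CX3CL1 with vehicle was highest in proximal tubule-like cells, at 9.21 CPM (7.79 to 10.8) in deep cells, against 2.63 CPM (1.78 to 3.76) in neural progenitor or glia-like cells. Over all cells the level was 8.67 CPM against 3.55 CPM, and the shallow endothelial-like class had 1 UMI. CXCL16 had like levels in proximal tubule-like cells (3.52 CPM, 2.67 to 4.57), the TESC-led cluster (3.48 CPM) and podocyte-like cells (2.39 CPM, 1.31 to 4.01), and was at 3 UMIs in deep stromal-like cells. CXCL1 was at 6.96 CPM in the TESC-led cluster and 3.40 CPM in proximal tubule-like cells. CXCL10 had 10 UMIs in deep stromal-like cells and 0 to 13 in each of the other named classes, which differ in total UMIs. Deep stromal-like cells led at 2.54 CPM (1.22 to 4.67), followed by neuronal-like cells at 1.47 CPM (0.784 to 2.52). These intervals overlap. Over all cells, the stromal-like level was 5.47 CPM (4.31 to 6.85), against 1.26 CPM (0.578 to 2.40) for the proliferating-like class. That lead counted as separate at a resolution of 0.5 and without alignment, but not in the main setting. CCL20 UMIs in deep VC cells were 30 in proximal tubule-like and 4 in muscle-like cells, with 0 in every other named class. That is 1.85 CPM (1.25 to 2.65) and 1.96 CPM (0.534 to 5.02), with intervals that overlap. These 30 UMIs came from 8 cells, with up to 10 in 1 cell.

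**Figure D4:**
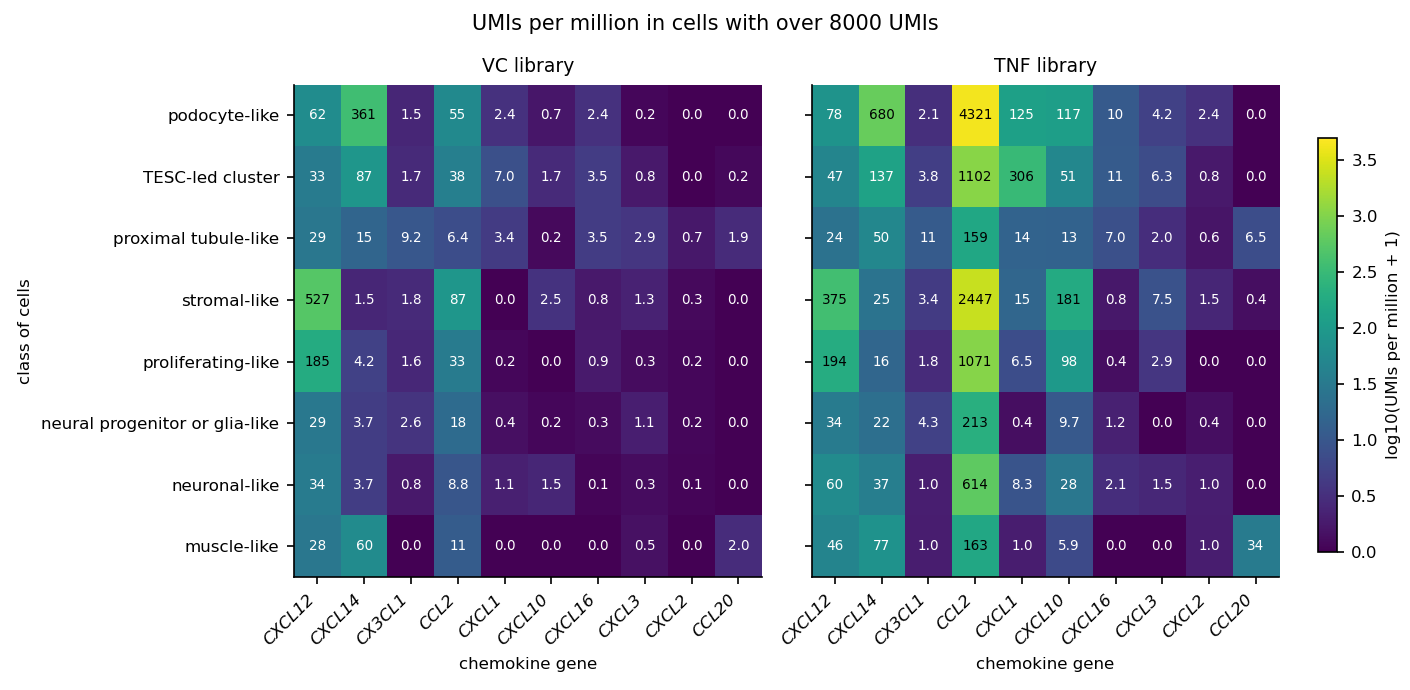
The 2 panels give CPM of each chemokine (columns) in 8 cell classes (rows) for cells of over 8000 UMIs, VC library left and TNFα library right, with color on the scale of log10(CPM + 1). CXCL12 was highest in stromal-like cells and CXCL14 in podocyte-like cells in both libraries, and CCL2 was highest in stromal-like cells with VC (86.5) and in podocyte-like cells with TNFα (4321).

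After TNFα, CCL2 was highest in podocyte-like cells. In deep cells it went from 55.1 to 4321 CPM (4251 to 4393), a ratio of 78.4 (70.2 to 87.8), against 86.5 to 2447 CPM in stromal-like cells, a ratio of 28.3 (25.4 to 31.6). The order of these classes was thus opposite in the 2 libraries. CCL2 reached 1102 CPM in the TESC-led cluster and 1071 CPM in proliferating-like cells. In proximal tubule-like TNFα cells CCL2 was at 863 CPM in cells of up to 2000 UMIs and 159 CPM in deep cells, beside podocyte marker sums of 969 and 145 CPM in the same cells, and the part of free RNA there was not tested. When deep cells were thinned to 8000 UMIs, 97.5% of podocyte-like and 97.2% of stromal-like TNFα cells had a CCL2 UMI, and 18.8% and 24.1% of those with vehicle. No class is known to lack CCL2. The share was 51.5% in neuronal-like, 40.3% in glia-like, 36.3% in muscle-like and 34.4% in proximal tubule-like TNFα cells. Deep proximal tubule-like cells went from 6.37 CPM with vehicle to 159 CPM with TNFα. How much of this was their own expression was not tested. Over all cells, CCL2 was at 2902 CPM in podocyte-like, 1879 CPM in stromal-like and 451 CPM in proximal tubule-like TNFα cells, and the ratio was 57.5 (52.2 to 63.3) in podocyte-like and 20.2 (19.1 to 21.3) in stromal-like cells.

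CXCL1 after TNFα was highest in the TESC-led cluster, at 306 CPM from 6.96 CPM in deep cells, a ratio of 43.98 (31.6 to 63.1), and this cluster held 64.8% of the CXCL1 UMIs of deep TNFα cells. Over all cells the ratio there was 20.1 (15.7 to 26.2). Podocyte-like cells were next, at 125 CPM (113 to 137) from 2.39 CPM, and led the named classes, with 80.1 from 2.12 CPM over all cells. Without alignment no cluster had TESC among its leading genes. CXCL1 was then at 193 CPM with TNFα and 5.69 CPM with vehicle in podocyte-like cells of all depths. Deep stromal-like cells had 0 CXCL1 UMIs with vehicle and 15.4 CPM with TNFα. That is at least 20.2-fold higher with vehicle set to a floor of 3 UMIs over the class. Stromal-like vehicle cells of 2000 to 4000 and of 4000 to 8000 UMIs did hold CXCL1, at 0.923 and 0.531 CPM. Deep proximal tubule-like cells went from 3.40 to 14.1 CPM, a ratio of 4.16 (2.94 to 5.92). After thinning, 99 of 198 cells of the TESC-led cluster and 41.2% of podocyte-like cells had a CXCL1 UMI, against 5.69% of proximal tubule-like, 5.52% of neuronal-like and 0.46% of glia-like cells.

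CXCL10 after TNFα was highest in stromal-like cells, at 181 CPM (165 to 198) from 2.54 CPM, followed by podocyte-like cells at 117 CPM (105 to 129) from 0.683 CPM. The ratios were 71.2 (38.4 to 150) and 171 (66.1 to 630) in deep cells, with intervals that overlap. Over all cells they were 34.1 (27.2 to 43.4) and 149 (63.5 to 459), with intervals that do not overlap. Proliferating-like cells had 0 CXCL10 UMIs with vehicle in deep cells and 98.4 CPM with TNFα. Proximal tubule-like cells reached 13.4 CPM and muscle-like cells 5.86 CPM, against 33.1 and 62.7 CPM over all cells.

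CXCL14 stayed a podocyte-like transcript, at 680 CPM (652 to 709) in deep TNFα cells, a ratio of 1.88 (1.78 to 2.001), and 488 CPM in all cells, a ratio of 1.28 (1.22 to 1.33). Its ratio was higher where the vehicle level was low, 3.37 (2.85 to 4.0) in proximal tubule-like cells and 16.3 (7.10 to 46.0) in stromal-like cells, which reached 50.5 and 24.8 CPM. Over all cells these ratios were 4.27 (3.75 to 4.87) and 25.7 (16.5 to 42.5). In glia-like, neuronal-like and proliferating-like cells the deep TNFα levels were 21.7, 37.1 and 15.6 CPM, beside podocyte marker sums of 180, 362 and 113 CPM there and 6633 CPM in podocyte-like cells. In TNFα cells of up to 2000 UMIs, CXCL14 was at 87.1 CPM in stromal-like and 95.5 CPM in proximal tubule-like cells. The podocyte marker sums there were 862 and 969 CPM, against 150 and 145 CPM in deep cells of these classes. The part of free RNA in the CXCL14 levels and ratios outside the podocyte-like class was not tested.

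CXCL12 did not move one way across classes. In stromal-like cells it was lower with TNFα, 375 against 527 CPM in deep cells, a ratio of 0.711 (0.659 to 0.767), and 311 against 508 CPM over all cells, a ratio of 0.612 (0.590 to 0.634). The summed level of the 8 stromal markers in these cells was also lower with TNFα, 5479 against 7208 CPM in deep cells and 4998 against 7507 CPM over all cells, and its part in the CXCL12 difference was not tested. In podocyte-like cells it was higher, 78.0 against 62.0 CPM, a ratio of 1.26 (1.07 to 1.48), and 1.88 (1.70 to 2.08) over all cells. CXCL12 in podocyte-like cells of up to 2000 UMIs was at 165 CPM in 953 TNFα cells and 30.8 CPM in 50 vehicle cells. The shallowest cell kept had 1514 UMIs in the TNFα library and 613 in the VC library. With so few vehicle cells and unlike depths, these 2 values are not compared. Stromal marker sums in podocyte-like cells were 2557 CPM at that depth and 1283 CPM in deep cells with TNFα, against 2339 and 1216 CPM with vehicle. The part of free RNA in the CXCL12 difference of podocyte-like cells was not tested. In proximal tubule-like cells the ratio was 2.34 (2.12 to 2.60) over all cells and 0.837 (0.693 to 1.01) in deep cells, so its direction turned with depth. Stromal-like cells led CXCL12 in both libraries.

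CXCL16 went from 2.39 to 10.2 CPM in deep podocyte-like cells, a ratio of 4.29 (2.24 to 8.64), from 3.48 to 10.6 CPM in the TESC-led cluster, and from 3.52 to 6.99 CPM in proximal tubule-like cells, a ratio of 1.98 (1.31 to 2.98). Over all cells the ratios were 2.43 (1.60 to 3.82), 2.202 (1.36 to 3.67) and 1.85 (1.34 to 2.57) in the same order. Deep stromal-like cells had 3 CXCL16 UMIs with vehicle and 2 with TNFα. CX3CL1 was at 9.21 and 10.7 CPM in proximal tubule-like cells, a ratio of 1.16 (0.861 to 1.56), and this class held 63.1% of the CX3CL1 UMIs of deep VC cells and 55.6% of those of deep TNFα cells. CXCL2 had 0 to 12 UMIs in each named class of deep cells, too few to order the classes. CXCL3 was at 7.52 CPM in stromal-like, 6.27 CPM in TESC-led and 4.22 CPM in podocyte-like TNFα cells, on 14 to 23 UMIs each. CCL20 in deep TNFα cells was led by muscle-like cells, at 34.2 CPM (23.8 to 47.6), against 6.52 CPM (4.70 to 8.82) in proximal tubule-like cells. These levels rest on 35 UMIs, up to 17 in 1 cell, and 42 UMIs, up to 29 in 1 cell, and every other named class had at most 1 UMI. Over all cells the levels were 14.5 and 3.66 CPM.

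**Figure D5:**
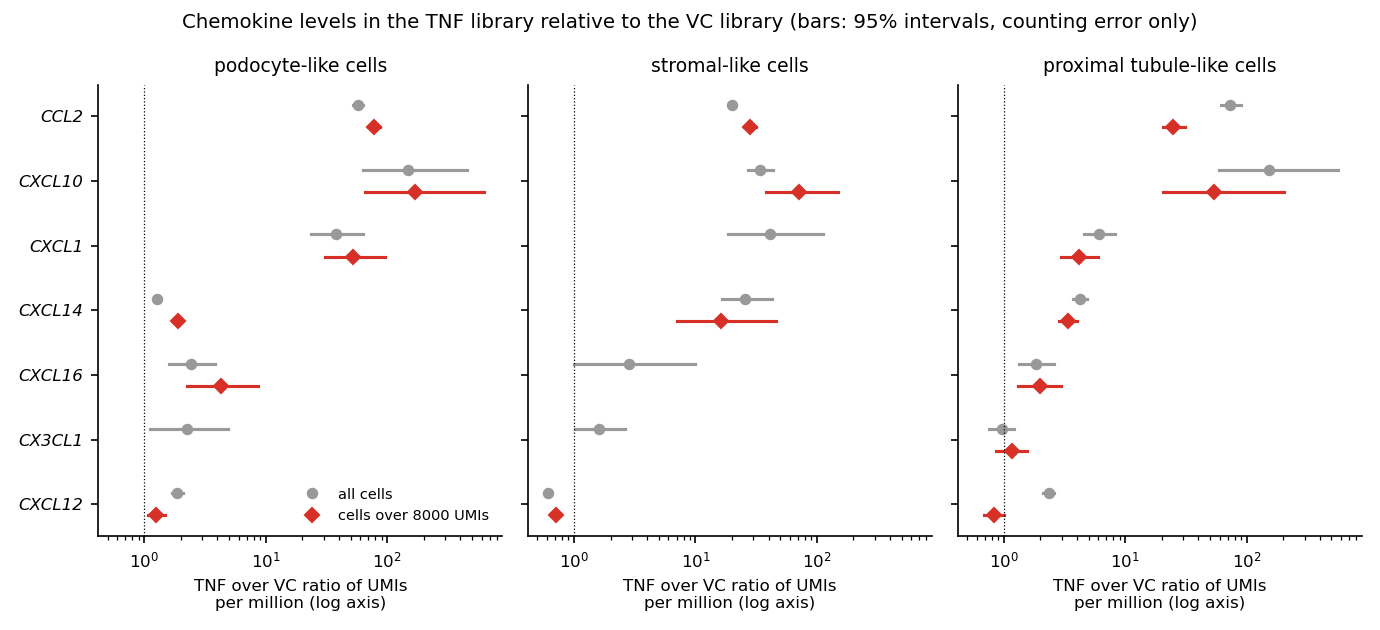
Points give the TNFα over VC ratio of CPM (log axis) in podocyte-like, stromal-like and proximal tubule-like cells, gray for all cells and red for cells of over 8000 UMIs, with bars for 95% intervals that cover counting error only. CCL2, CXCL10 and CXCL1 lie far right of 1 in podocyte-like and stromal-like cells wherever a ratio is drawn, and CXCL12 lies left of 1 in stromal-like cells (0.612 and 0.711) and right of 1 in podocyte-like cells (1.88 and 1.26).

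Members were counted where they had at least 20 UMIs over both libraries and at least a 2-fold ratio. Over all cells, 6 of 10 were higher in podocyte-like cells, 7 in stromal-like and 5 in proximal tubule-like cells. Of the genes with at least 20 UMIs in the class, 11.7%, 5.21% and 6.3% were higher by the same rule. The member counts are out of all 10, whether or not a member reached 20 UMIs. In deep cells the counts were 4, 5 and 5, against 3.68%, 2.76% and 1.74%. Both counts for proximal tubule-like cells include CCL2, CXCL1, CXCL10 and CXCL14, and the part of free RNA in these was not tested. In deep TNFα cells CXCL10 was at 13.4 CPM in proximal tubule-like and 28.4 CPM in neuronal-like cells, and CXCL1 at 14.1 and 8.25 CPM. In deep cells the count there also includes CCL20, most of whose TNFα UMIs came from a single cell. Over all cells it includes CXCL12, whose direction turned with depth. No member was lower by that rule in these classes. Summed over whole libraries, CCL2 went from 30.9 to 1235 CPM, CXCL10 from 1.38 to 79.6 CPM and CXCL1 from 1.81 to 41.4 CPM, and CXCL12 from 120 to 140 CPM. The whole-library ratio of CXCL12, 1.16 (1.13 to 1.19), stood beside a fall in the class that led it.

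Receptors for most of these ligands were hardly seen in the organoid cells. Over all cells of the VC and TNFα libraries, CXCR1 had 0 and 0 UMIs, CXCR2 3 and 2, CXCR3 1 and 1, CXCR6 1 and 0, CCR2 0 and 0, CCR6 30 and 20, and CX3CR1 0 and 2. A count of 0 limits cells with a UMI and does not show that a gene is silent. CXCR4 and ACKR3, the receptors of CXCL12, were the exceptions, with 2058 and 1322 and with 1639 and 1035 UMIs. CXCR4 was highest in neuronal-like cells, 93.8 CPM with vehicle and 69.6 CPM with TNFα in deep cells, and ACKR3 was at 54.0 CPM in podocyte-like cells with vehicle and 19.9 CPM with TNFα. Bulk ACKR3 was lower with TNFα as well, while the direction of CXCR4 was up in the bulk spheroids and down in the single-cell libraries, which held different preparations of the organoids.

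The genes most like each chemokine across the 8 named classes of both libraries were found by Pearson correlation of log2(CPM + 10) over the 16 class values. These points share 2 libraries and differ in depth, so the values are descriptions. CXCL12 was most like the matrix genes COL6A2 (0.984) and COL1A1 (0.980) and HIC1 (0.980). CCL2 was most like NFKBIA (0.977), UBD (0.961) and CXCL10 (0.961), CXCL10 like FDCSP (0.984), ICAM1 (0.976) and SFRP4 (0.969), and CXCL1 like TNFRSF4 (0.976), LTBP2 (0.968) and PTGS1 (0.955). CXCL14 was most like PAQR7 (0.930), SOST (0.925) and DRD4 (0.924), CX3CL1 like STEAP2 (0.926), RAB36 (0.915) and OGDHL (0.911), and CXCL16 like CST5 (0.930), ARHGEF16 (0.921) and QPCT (0.882). For CXCL3 (CXCL6, 0.911, CD58, 0.880, SND1, 0.869), CXCL2 (SND1, 0.905, LINC01138, 0.889, CXCL6, 0.867) and CCL20 (TRIM61, 0.725, LAD1, 0.717, SCT, 0.715) the values rest on 130 to 401 UMIs of the chemokine in all.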

How the data were processed

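Bulk libraries and single-cell libraries of kidney organoids were analysed from deposited tables. The authors aligned bulk reads with STAR 2.7.8a to GRCh38, counted them with HTSeq, used voom, removed some genes by an unstated rule and deposited log2 values. The deposited log2 value is log2(CPM + 1) with 0.5 added per count, from which 100% of the values gave whole read numbers (within 0.01 of a whole number). The single-cell UMI counts were deposited by the authors as filtered Cell Ranger matrices without normalization. The tables were normalized separately, and levels are not compared between them. The untreated D25 single-cell sample was not analysed here.

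limma 3.58.1 (R 4.3.3, eBayes with trend) was fitted to the deposited log2 values, with 1 mean per day in set 2 and with treatment and hours in the TNFα set, and p-values were adjusted over all genes of a table by Benjamini-Hochberg. Genes with an adjusted p under 0.05 were called. edgeR 4.0.16 and DESeq2 1.42.0 on the recovered reads were alternatives. Cells were clustered (scanpy 1.11.5, leidenalg 0.10.2, 30 components, 20 neighbors, resolution 0.25, libraries aligned by a Harmony algorithm). A cluster was named from at least 3 raised markers of a list, unless another list had more markers among its leading genes. Shallow clusters with no listed marker among these genes were also left unnamed. The libraries shared 74 barcodes, which were kept. Doublets were kept. Intervals are exact at 95%. All 10 members are named, then the called genes of each list, or the 5 with the largest changes, and the 3 most alike genes. The members and lists were chosen with earlier results of these data known. Scripts were tested on simulated data.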

Additional observations from a re-analysis of the deposited data

Results flagged for a closer look

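CXCL12 was flagged because it moved in opposite directions between VC and TNFα in different cell classes. Its TNFα over VC ratio was 1.88 in podocyte-like cells over all cells and 1.26 in those of over 8000 UMIs, and 0.612 and 0.711 in stromal-like cells. The 8 summed stromal markers were lower in the same stromal-like cells, at 4998 against 7507 CPM over all cells and 5479 against 7208 CPM in those of over 8000 UMIs. In podocyte-like TNFα cells CXCL12 was at 165 CPM in cells of up to 2000 UMIs and 78.0 CPM in those of over 8000 UMIs. The part of free RNA there was not tested. There was 1 library per condition, so the difference between the classes was not tested.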

How the results depend on the processing

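Some values near 0 turned direction when a library was left out. With each library left out in turn, the log2 fold change between D25 and D21 ran from -0.050 (without the first D25 library) to 0.27 for CXCL2, and that between D29 and D21 from -0.036 (without the second D29 library) to 0.34 for CXCL10. Between D29 and D25 it ran from -0.16 to 0.11 for CX3CL1, -0.016 to 0.083 for CXCL1, -0.052 to 0.44 for CXCL14 and -0.052 to 0.27 for CXCL2. The TNFα over VC ratio of CXCL12 in proximal tubule-like cells was 0.854 without alignment, 0.914 with a marker gate and 0.837 in cells over 8000 UMIs, and that of CXCL16 in stromal-like cells was 0.987 in cells over 8000 UMIs.

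With each library left out in turn, 0 to 4 chemokines were called between D25 and D21, 0 to 1 between D29 and D25 (CXCL12, without the first D29 library), 4 to 6 between D29 and D21 and 6 to 7 with TNFα. In set 1, 3 chemokines were past 2-fold with log2(CPM + 0.1) and 5 past a threshold of 0.5. With the marker gate, 2 chemokines were at 2-fold in proximal tubule-like cells. Chemokines with a separate leading class in the VC library were 5 at a resolution of 0.5, 6 without alignment and 1 with the marker gate. In the TNFα library CXCL1, CXCL10, CXCL12, CXCL14, CCL2 and CCL20 had one in the main setting, and 0 had one with the marker gate. The named classes compared differed between settings. No class was endothelial-like at a resolution of 0.5, and the gate added classes with wide intervals, such as leukocyte-like cells for CCL2 with TNFα (593 to 5569 CPM). The causes were not tested. Of the alternative values of single chemokines, 459 kept direction and side of the threshold, 33 lost the call, 9 gained it, 21 moved and 12 turned.

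Calls over all genes went from 1486 (D25 against D21) to 392 with a 2-fold rule, 2252 with median centring and 241 to 2231 with a library left out. From 574 (D29 against D25) they went to 187 with the 2-fold rule, 209 without a trend, 1128 with a filter at 1 CPM, 1336 by edgeR, 1288 by DESeq2, 1233 with median centring and 0 to 2014 with a library left out. From 5081 (D29 against D21) they went to 1366 with the 2-fold rule and 2358 to 5417 with a library left out. From 4061 (TNFα) they went to 376 with the 2-fold rule, 2184 by DESeq2, 1310 with treatment only and 638 to 738 with a library left out. Median centring turned the split from 2778 higher and 2303 lower to 2408 and 4667 between D29 and D21, and from 937 and 549 to 971 and 1281 between D25 and D21, and added a call of CXCL1 as lower on D29. DESeq2 gave 1206 higher and 978 lower with TNFα, against 1776 and 2285.

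With the replicate block in set 2, 4, 0 and 6 chemokines were called between D25 and D21, D29 and D25, and D29 and D21, as without it, and 2091, 1118 and 6056 genes in all. Libraries that share a number had correlated deviations of 0.141 (D21 and D25), 0.0756 (D21 and D29) and 0.268 (D25 and D29). These values were all positive and do not show whether the numbers pair samples, and the main fit took them as unpaired. Depth limits CXCL2, CXCL3, CXCL10 and CCL20, which rest on 26 reads or fewer per untreated library, or 44 for CXCL2.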
